A study of Mus musculus with 4 samples.

Results

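The extracellular matrix genes described here are 60 of the 27827 genes named on the arrays. They were taken by name and not by any measured value: every gene the scanner files name as a collagen chain or a laminin chain, with Sparc, Dcn, Lum, Fn1, Bgn, Fbn1, Nid1, Pdgfra and Pdgfrb. They have 115 probes and 160 spots. The study profiled B220 B cells, which carry the B lineage form of the surface phosphatase CD45, on Agilent Cy3 arrays, 1 array for each of 4 groups. Marrow KO and spleen KO came from Mef2c knockout mice, and marrow WT and spleen WT from C57BL/6 mice, the marrow samples from bone marrow and the others from spleen. All 4 groups were freshly isolated cells of naive mice. The sources used here do not give the number, age or sex of the animals, the isolation method, the deleted part of Mef2c, or whether the deletion was limited to certain cells.

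Collagens are secreted as chains wound into a triple helix, in which glycine returns at regular steps along each chain. Fibrillar collagens build the cables of bone and connective tissue, while collagen IV, the laminins and nidogen build the thin basement membranes under vessels. In bone marrow these genes are known as products of reticular stroma, bone-forming cells and endothelium, and B cells are not known as their usual source.

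Levels are given as relative signal, in which 100 is the 75th percentile of gene spots on that array, and differences are log2 values of that signal. A gene counts as measured in a comparison when its brightest probe was well above background on at least 1 of both arrays. Where it was so on 1 array only, the difference is a bound, written "at least". The 75th percentile lay between 966 and 1012 on 3 arrays and at 524 on spleen KO, and 59.3% to 71.98% of gene spots were well above background. Each group has 1 array, so KO and WT values of a tissue are set side by side without replicates or a p-value. Both marrow arrays shared slide 1 and scan 1 and both spleen arrays slide 2 and scan 2, the KO array in position 1 on either slide and the WT array in position 2. Tissue and slide, and genotype and slide position, therefore cannot be told apart. The brighter Mef2c probe read 545 on marrow KO against 437 on marrow WT, and 2261 on spleen KO against 878 on spleen WT. It was thus not lower on the arrays labelled KO. A dimmer Mef2c probe read 2.82 on marrow KO against 2.19 on marrow WT, and 24.4 on spleen KO against 37.4 on spleen WT, lower on spleen KO. Whether either lies in the deleted part is not known here. All 10 B lineage markers were well above background on all 4 arrays.

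The chemistry of the helix can be read in 3 of the 115 probes, which fall within the coding sequence of the repeat. They were picked by sequence alone, and their signals are given below. Capitals mark the GGN glycine codons, spaced 9 bases apart. The pattern was found in 3 of all 41174 gene probes. Each probe is 60 bases and lies, on build mm9 per the files, at chr17:34189287-34189453 (plus strand), chr2:27842243-27844666 (plus strand) and chr9:20590066-20590795 (minus strand), spans wider than the probe.
Col11a2: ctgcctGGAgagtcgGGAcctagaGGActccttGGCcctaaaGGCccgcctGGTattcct
Col5a1: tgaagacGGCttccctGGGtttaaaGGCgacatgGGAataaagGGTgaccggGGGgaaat
Col5a3: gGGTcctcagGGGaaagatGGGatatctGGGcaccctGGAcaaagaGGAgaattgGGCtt

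By mean signal the helix probes were dimmer than the brightest probes of their genes, which follows from how the brightest were chosen. The Col5a1 helix probe read 3.16 on marrow KO against 2.69 on marrow WT, and 5.38 on spleen KO against 16.1 on spleen WT. The brightest Col5a1 probe, used below, read 31.6 on marrow KO against 9.77 on marrow WT, so a 3.23-fold difference in the marrow rests on that probe. The Col5a3 helix probe read 3.53 on marrow KO against 5.55 on marrow WT and was not well above background in the spleen. The Col11a2 helix probe read 3.32 on marrow KO against 3.60 on marrow WT.

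Matrix genes were detected more often in the marrow. Of the 60 genes, 53 were well above background on marrow KO and 48 on marrow WT, but 32 on spleen KO and 36 on spleen WT. These are 88.3%, 80%, 53.3% and 60% of the matrix genes, beside 70.9%, 72.6%, 60.3% and 68.8% of all genes, which were also detected more often in the marrow. The median relative signal over all 60 was 14.6 on marrow KO against 9.25 on marrow WT, and 3.98 on spleen KO against 4.50 on spleen WT. On all 4 arrays 29 genes were well above background, on 3 arrays 9, on 2 arrays 10 and on 1 array 6. The other 6 genes, Col24a1, Col4a3, Col6a3, Col28a1, Lama1 and Lama2, were well above background on 0 arrays.

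**Figure D1:**
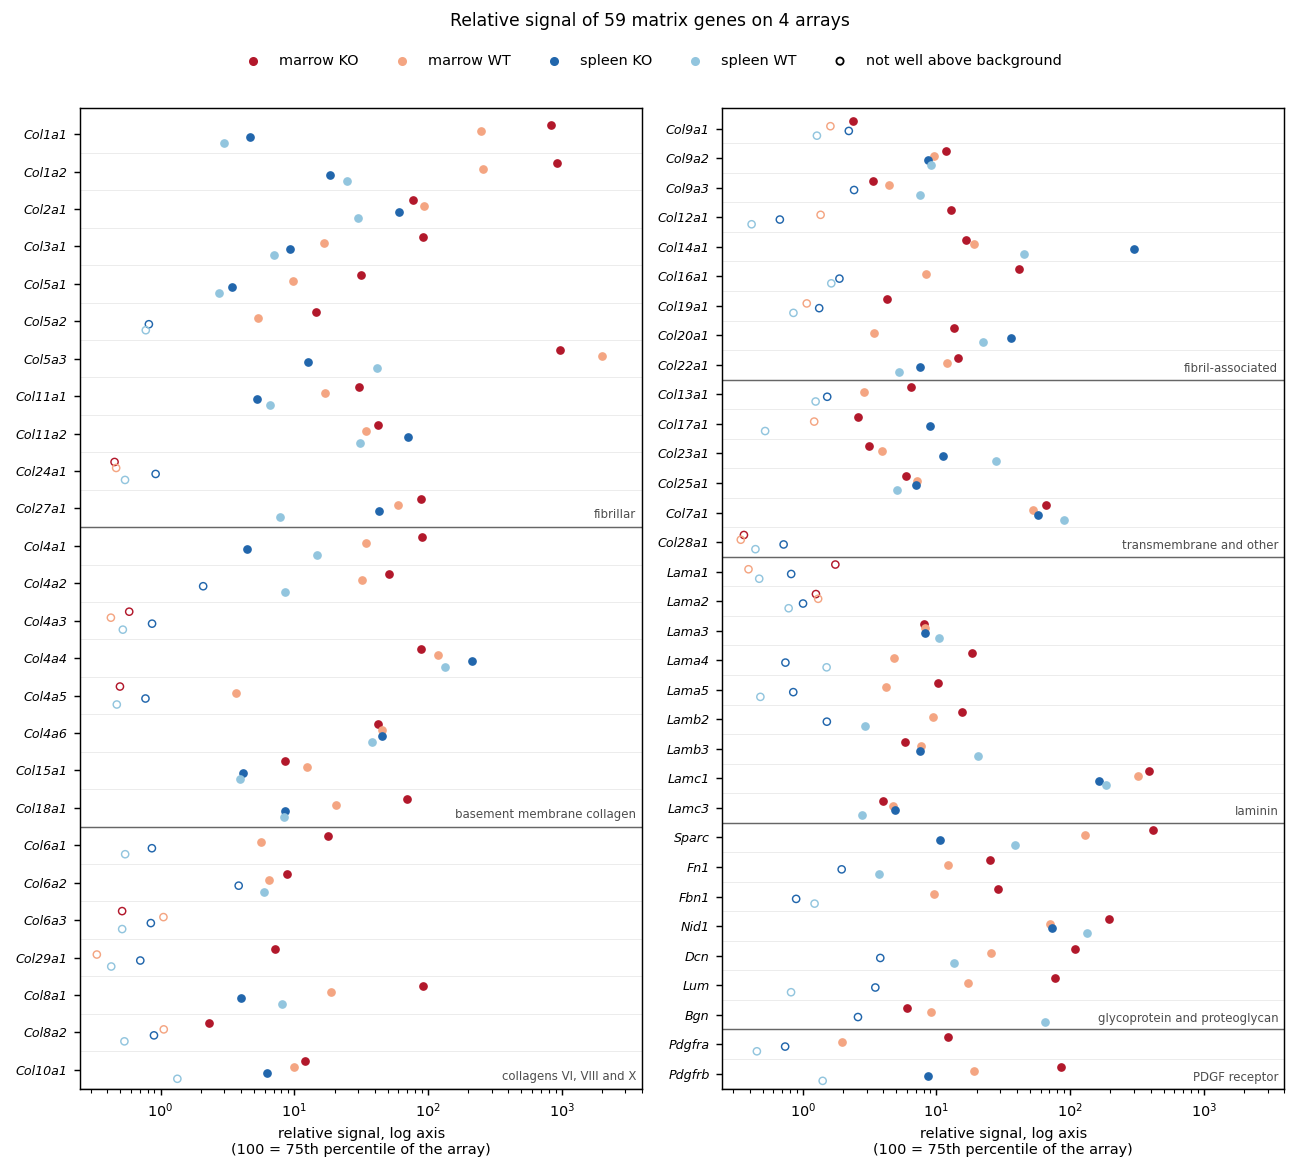
Relative signal of 59 of the 60 matrix genes on each array, on a log axis on which 100 is the array's 75th percentile. Each point is 1 array, filled where well above background, and genes are grouped by role. Col1a1 and Col1a2 lie between 249 and 923 on the marrow arrays and between 3.004 and 24.8 on the spleen arrays.

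In the marrow the knockout array read higher for many of these genes. Of 54 measured, 25 were at least 2-fold higher on marrow KO than on marrow WT, 3 of them as bounds, where 8.59% of 20904 genes measured were. At least 2-fold lower were 2 genes, where 4.88% of all genes were. The 25 genes make up 46.3% of the 54. The median difference over the 47 genes well above background on both arrays was 0.71, beside -0.05 over all genes. In these bulk isolates, more cells of a type and more RNA per cell cannot be told apart.

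Of the 10 fibrillar collagens measured, 5 were at least 2-fold higher and 1 at least 2-fold lower. Col1a1 and Col1a2 encode both chains of collagen I, the main fibre of bone and skin. Col1a1 read 825 on marrow KO against 249 on marrow WT, a difference of 1.73. Col1a2 read 923 on marrow KO against 256 on marrow WT, a difference of 1.85. On these probes both chains were thus higher on marrow KO by similar amounts. A dimmer Col1a1 probe read 30.5 on marrow KO against 18.3 on marrow WT, a difference of 0.74, under 2-fold. The brightest Col1a1 probe was printed in 10 spots, which spanned 752 to 880 on marrow KO and 223 to 269 on marrow WT without overlap. Such spots show the precision of 1 array, not of animals.

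Col3a1, which makes the collagen of reticular fibres, read 91.3 on marrow KO against 16.6 on marrow WT, a difference of 2.46. Another Col3a1 probe nearer the 5′ end read 1.98 on marrow KO against 2.82 on marrow WT, the opposite direction close to the detection floor. In the spleen the brightest probe read 9.31 on spleen KO against 7.06 on spleen WT, a difference of 0.40. Collagen V nucleates collagen I fibrils. Its chains Col5a1 and Col5a2 were higher on marrow KO, by 1.69 and 1.46. The third chain gene, Col5a3, went the other way: 971 on marrow KO against 1985 on marrow WT, a difference of -1.03. Col27a1 read 88.5 on marrow KO against 59.3 on marrow WT, a difference of 0.58. Its other probes went the opposite way. They read 10.6 on marrow KO against 14.1 on marrow WT (-0.41) and 7.49 on marrow KO against 17.0 on marrow WT (-1.18). Of the remaining fibrillar genes, Col11a1, Col11a2 and Col2a1 differed by 0.84, 0.30 and -0.28.

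The collagens of basement membranes were divided. Of 7 measured, 2 were at least 2-fold higher and 1 at least 2-fold lower. Col4a1, which with Col4a2 forms the common collagen IV, read 90.6 on marrow KO against 34.2 on marrow WT, a difference of 1.41. A second Col4a1 probe read 35.5 on marrow KO against 25.7 on marrow WT, a difference of 0.47, under 2-fold. Col4a2 read 51.1 on marrow KO against 31.9 on marrow WT, a difference of 0.68, under 2-fold. Col18a1, whose cleaved end is endostatin, read 69.6 on marrow KO against 20.7 on marrow WT, a difference of 1.75. Col4a5 read 0.497 on marrow KO, where it was not well above background, against 3.68 on marrow WT, and was at least 2.25-fold lower on marrow KO. It was not well above background in the spleen, at 0.771 on spleen KO and 0.470 on spleen WT. Col15a1 read 8.48 on marrow KO against 12.5 on marrow WT, and Col4a4 read 88.9 on marrow KO against 119 on marrow WT, differences of -0.56 and -0.42.

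Among the collagens VI, VIII and X, 3 of 6 had at least 2-fold higher signal on marrow KO and 0 lower. Col8a1, a short-chain collagen of vessel walls, read 92.3 on marrow KO against 18.7 on marrow WT, a difference of 2.30. Col6a1, a chain of the beaded filaments around cells, read 17.9 on marrow KO against 5.62 on marrow WT, a difference of 1.67. Its partner Col6a2 differed by 0.44. Col29a1, an older symbol of a collagen VI chain, read 7.19 on marrow KO and was not well above background on marrow WT, so that it was at least 4.71-fold higher.

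Fibril-associated collagens coat the surface of fibres, and 4 of 9 measured were at least 2-fold higher on marrow KO. Col12a1 read 12.8 on marrow KO and was not well above background on marrow WT, at 1.36, so that it was at least 8.36-fold higher. Col16a1 read 41.5 on marrow KO against 8.40 on marrow WT, a difference of 2.31. Col20a1 was higher by 1.98, and Col19a1 was at least 2.81-fold higher. Col14a1, which binds decorin on fibrils, did not share this: it read 16.7 on marrow KO against 19.0 on marrow WT. Of the 5 transmembrane and other collagens measured, Col13a1, a collagen of cell junctions, was the single gene at least 2-fold higher, by 1.17.

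Laminins are the cross-shaped trimers of basement membranes. Of 8 chains measured, 2 were at least 2-fold higher on marrow KO and 0 lower. Lama4, the alpha chain typical of vessel basement membranes, read 18.4 on marrow KO against 4.82 on marrow WT, a difference of 1.94. A second Lama4 probe that shares 29 bases with it differed by 2.01. Lama5, a widespread alpha chain, was higher by 1.31. Lamc1, the gamma chain of most laminins, read 389 on marrow KO against 322 on marrow WT, a difference of 0.27.

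Of the 7 glycoproteins and proteoglycans, 6 were at least 2-fold higher on marrow KO. Sparc, a collagen-binding protein of bone, read 414 on marrow KO against 129 on marrow WT, a difference of 1.68. Dcn, the small proteoglycan decorin that spaces collagen fibrils, read 108 on marrow KO against 25.7 on marrow WT, a difference of 2.08. Lum, the related lumican, read 76.9 on marrow KO against 17.2 on marrow WT, a difference of 2.16. Nid1, which links laminin to collagen IV, and Fbn1, the microfibril protein fibrillin, differed by 1.46 and 1.61. Fn1, the adhesive protein fibronectin, differed by 1.04 on its brightest probe and by -0.95 on another probe well above background on both arrays. Bgn, biglycan, was the exception, at 6.00 on marrow KO against 9.10 on marrow WT.

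The PDGF receptors bind platelet-derived growth factors and mark mesenchymal cells and pericytes. Pdgfra read 12.2 on marrow KO against 1.95 on marrow WT, a difference of 2.65, the highest of the genes measured on both arrays. Its spots spanned 11.0 to 15.2 on marrow KO and 1.56 to 3.07 on marrow WT, where 4 of 6 spots were well above background. Pdgfrb read 85.5 on marrow KO against 19.0 on marrow WT, a difference of 2.17.

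**Figure D2:**
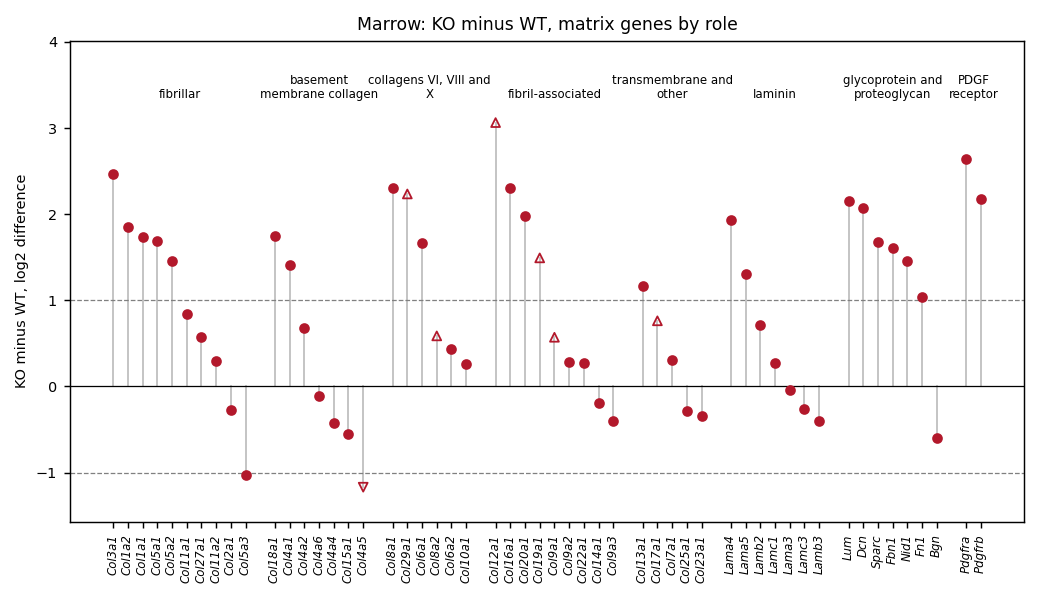
Log2 difference of marrow KO minus marrow WT for 53 of the 54 matrix genes measured, grouped by role and sorted within a role. Filled points were well above background on both arrays, open triangles are bounds, and dashed lines mark 2-fold. The glycoprotein and PDGF receptor genes lie above the upper line but for Bgn, the lowest value measured on both arrays is Col5a3 at -1.03, and Col4a5 lies lower as a bound of -1.17.

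Dim genes differed by 2-fold more often, so the count was also set against genes of like signal. All 54 matrix genes lay in the lower 3 of 4 equal bins of mean relative signal. In the dimmest bin 10 of 19 matrix genes were at least 2-fold higher, where 13.0% of all genes in it were. In the next bin 11 of 23 were, where 10.8% were, and in the bin after that 4 of 12, where 7.52% were.

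In the spleen these genes showed no common direction. Of 39 measured, 7 were at least 2-fold higher on spleen KO than on spleen WT, where 19.8% of 19466 genes were, and 11 were at least 2-fold lower, where 14.4% were. The 7 genes are 17.9% of those measured, and the 11 genes are 28.2%. The median difference over the 29 genes well above background on both arrays was 0.03, beside 0.27 over all genes. With bounds included it was -0.08. The split depends on the scaling: it was 11 higher and 7 lower under median scaling, 10 and 6 under quantile scaling and 9 and 9 under cyclic loess. Median scaling put the median of all genes, bounds included, at 0.52 in place of 0.090, and that of the matrix genes at 0.25.

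Of the 7 genes higher in the spleen, 1 was also at least 2-fold higher in the marrow, Pdgfrb. Among all genes, 444 of the 3860 at least 2-fold higher on spleen KO were also so on marrow KO. Col14a1 read 299.8 on spleen KO against 45.2 on spleen WT, a difference of 2.73. Col27a1, a fibrillar collagen of cartilage, read 43.3 on spleen KO against 7.79 on spleen WT, a difference of 2.47. A second Col27a1 probe read 5.60 on spleen KO against 8.84 on spleen WT, the opposite direction. Col17a1, the transmembrane collagen of skin hemidesmosomes, was at least 4.51-fold higher, at 8.98 on spleen KO against 0.523 on spleen WT, where it was not well above background. Col10a1, the collagen of growth plate cartilage, was at least 3.11-fold higher, at 6.20 on spleen KO against 1.34 on spleen WT, where it was not well above background. In the marrow Col17a1 read 2.59 on marrow KO and was not well above background on marrow WT, at 1.22, and Col10a1 read 12.0 on marrow KO against 9.98 on marrow WT. Col11a2 and Col2a1 were 2.30-fold and 2.01-fold higher. The Col11a2 helix probe read 3.29 on spleen KO against 4.46 on spleen WT, the opposite direction. Pdgfrb read 8.64 on spleen KO and was not well above background on spleen WT, at 1.41, so that it was at least 4.34-fold higher.

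At least 2-fold lower on spleen KO were 2 of 6 basement membrane collagens, 2 of 6 laminins and 3 of 5 glycoproteins and proteoglycans, and 0 of these were at least 2-fold higher. Bgn read 2.59 on spleen KO, where it was not well above background, against 64.5 on spleen WT, and was at least 19.97-fold lower on spleen KO. Sparc read 10.6 on spleen KO against 38.6 on spleen WT, a difference of -1.86. Its second probe read 9.50 on spleen KO against 6.53 on spleen WT, a difference of 0.54. Col4a1 read 4.42 on spleen KO against 14.7 on spleen WT, a difference of -1.74, while its second probe differed by -0.13. Dcn read 3.80 on spleen KO, where it was not well above background, against 13.5 on spleen WT. It was at least 3.56-fold lower and Col4a2 at least 2.63-fold lower on spleen KO. Each of these genes but Col4a2 and Bgn was at least 2-fold higher on marrow KO. Other genes differed by less than 2-fold: Lamc1 read 165 on spleen KO against 186 on spleen WT, and Col15a1 read 4.11 on spleen KO against 3.94 on spleen WT. Col4a4 read 212 on spleen KO against 134 on spleen WT, a difference of 0.66. Lamb3, a chain of the epithelial form of laminin, differed by -1.43. Col8a1 read 4.02 on spleen KO against 8.12 on spleen WT, a difference of -1.01. Col23a1 differed by -1.32, but by -0.21 on a second probe, and Col9a3 was at least 2.32-fold lower. Col5a3 read 12.7 on spleen KO against 41.2 on spleen WT, a difference of -1.70.

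Across both tissues 39 genes were measured in each comparison. Pdgfrb was the single gene at least 2-fold higher in both, and Col5a3 the single gene at least 2-fold lower in both. Col4a1, Col8a1, Sparc and Dcn were at least 2-fold higher on marrow KO and at least 2-fold lower on spleen KO, and 0 genes ran the other way. Among all 18645 genes measured in both tissues, 444 were higher in both, 380 lower in both, 79 higher in the marrow and lower in the spleen, and 39 lower in the marrow and higher in the spleen.

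**Figure D3:**
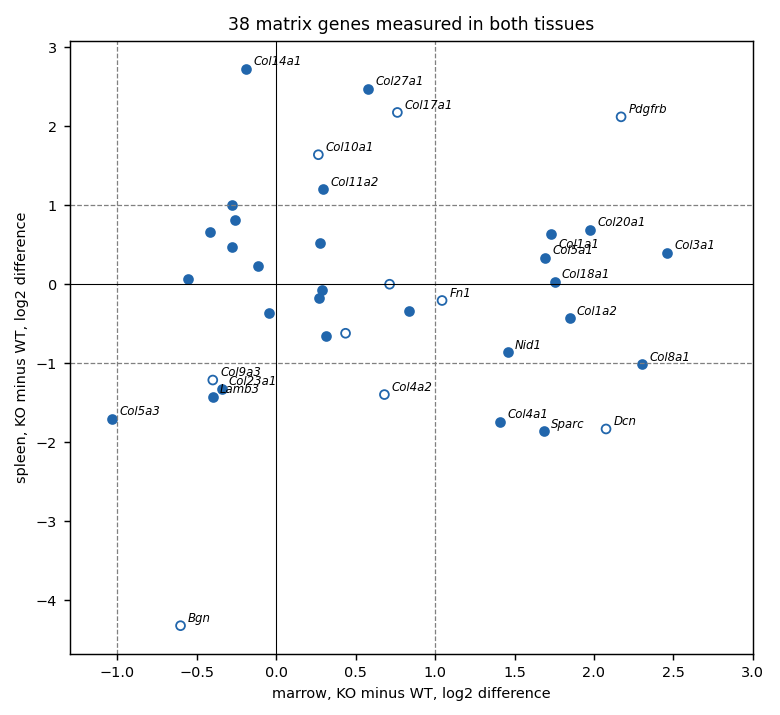
Log2 difference of KO minus WT in the marrow (horizontal) and in the spleen (vertical) for 38 of the 39 matrix genes measured in both tissues. Open points include a bound, and dashed lines mark 2-fold. Beyond both dashed lines Pdgfrb is alone at the upper right and Col5a3 at the lower left, and Sparc, Dcn, Col4a1 and Col8a1 lie at the lower right.

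The test that the design allows treats the tissues as repeats of a shared genotype effect. In limma with tissue and genotype as terms, 0 of 54 matrix genes had a genotype effect at an adjusted p under 0.05, and 0.00921% of 21724 genes did. At an unadjusted p under 0.05 there were 11 matrix genes, 9 higher and 2 lower in KO, beside 10.7% of all genes tested. Pdgfrb came closest, higher in KO by 2.39 on the log2 scale (SE 0.526, limma adjusted p = 0.255) and higher in 2 of 2 tissues. Lum, measured in the marrow alone, followed at 2.13 (SE 0.521, limma adjusted p = 0.278), and Bgn was the lowest at -2.62 (SE 0.865, limma adjusted p = 0.383), lower in 2 of 2 tissues. These fitted sizes use the measured values of probes not well above background, for Pdgfrb on spleen WT, for Lum on both spleen arrays and for Bgn on spleen KO, and are no bounds. The fit has 1 residual degree of freedom, and whether the genotype effect differs between tissues could not be tested. With median scaling or with no filter on dim genes, 5 matrix genes passed in limma (Bgn, Col17a1, Col29a1, Lum and Pdgfrb), with adjusted p-values of 0.00524 to 0.0443. Of all genes, 446 of 21724 passed with median scaling and 591 of 27824 with no filter, against 2 of 21724 above.

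Between the tissues most matrix genes read lower in the spleen. On the KO arrays 30 of 53 genes measured were at least 2-fold lower in spleen than in marrow, where 14.2% of 20014 genes were, and 5 were at least 2-fold higher, where 15.6% were. On the WT arrays 26 of 48 were at least 2-fold lower, where 15.8% of 21100 genes were, and 6 were higher, where 15.5% were. The median differences of spleen minus marrow, bounds included, were -1.19 in KO and -1.20 in WT, beside 0.01 and -0.09 over all genes. Of the genes lower in spleen, 15 of the 30 in KO and 9 of the 26 in WT are bounds, for genes counted as measured through the marrow array alone. With both arrays required to be well above background, 15 in KO and 17 in WT were at least 2-fold lower, and with normexp background correction 19 in KO and 9 in WT were. The KO and the WT comparison share no array.

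In limma 19 of 54 matrix genes had a tissue effect, given as spleen minus marrow on the log2 scale, at an adjusted p under 0.05, where 7.44% of 21724 genes did, and at an unadjusted p under 0.05 there were 32, where 20.1% did. Of the 19, 18 were lower in spleen, and 6 were well above background on all 4 arrays. For 8 the probe was well above background on both marrow arrays alone, and for Col12a1 on marrow KO alone. These genes entered the test through the marrow, where they read high, and their spleen values are readings near background. Their p-values are thus no separate support for a lower spleen signal. Col1a1 read 4.68 on spleen KO and 3.004 on spleen WT, against 825 on marrow KO and 249 on marrow WT (-6.92, SE 0.553, limma adjusted p = 0.000914). Col5a3 read 12.7 on spleen KO and 41.2 on spleen WT, against 971 on marrow KO and 1985 on marrow WT (-5.92, SE 0.533, limma adjusted p = 0.00119). Col1a2 read 18.4 on spleen KO and 24.8 on spleen WT, against 923 on marrow KO and 256 on marrow WT (-4.51, SE 0.651, limma adjusted p = 0.00537). For these 3 genes every spleen value was at least 10.3-fold below every marrow value.

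The other 15 genes lower in spleen came from most roles. Each is given with its signals on spleen KO and spleen WT, then on marrow KO and marrow WT, and with the fitted difference. Among fibrillar chains, Col5a1 read 3.42 and 2.71 in spleen, against 31.6 and 9.77 in marrow (-2.53), and Col5a2 read 0.818 and 0.775 in spleen, against 14.6 and 5.34 in marrow (-3.47). Col4a2 read 2.08 and 8.50 in spleen, against 51.1 and 31.9 in marrow (-3.26). Col6a1 read 0.861 and 0.543 in spleen, against 17.9 and 5.62 in marrow (-3.87). On these probes the 4 values of each gene put both spleen arrays below both marrow arrays. The fit picked these genes on the same values, so that order is no separate support. Col5a2 and Col6a1 were not well above background on either spleen array. The Col5a1 helix probe, well above background on all 4 arrays, went the other way. It read 5.38 and 16.1 in spleen, against 3.16 and 2.69 in marrow.

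The fibril-associated collagens and laminins given here were picked by the fit in the same way. Col12a1 read 0.674 and 0.414 in spleen, against 12.8 and 1.36 in marrow (-2.98), and Col16a1 read 1.88 and 1.63 in spleen, against 41.5 and 8.40 in marrow (-3.41). Lama4 read 0.742 and 1.51 in spleen, against 18.4 and 4.82 in marrow (-3.16). Lama5 read 0.849 and 0.482 in spleen, against 10.3 and 4.18 in marrow (-3.36). Lamb2, the beta chain of synapses and vessels, read 1.51 and 2.94 in spleen, against 15.4 and 9.40 in marrow (-2.51). Col12a1 was well above background on marrow KO alone, and Col16a1, Lama4 and Lama5 on both marrow arrays alone.

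The glycoproteins and PDGF receptors completed the 15. Sparc read 10.6 and 38.6 in spleen, against 414 and 129 in marrow (-3.51). Fn1 read 1.95 and 3.72 in spleen, against 25.0 and 12.1 in marrow (-2.69). Fbn1 read 0.892 and 1.22 in spleen, against 28.9 and 9.51 in marrow (-3.99). Lum had the lowest fitted difference of these 15, with 3.49 and 0.817 in spleen, against 76.9 and 17.2 in marrow (-4.43). Pdgfra read 0.738 and 0.454 in spleen, against 12.2 and 1.95 in marrow (-3.08), and Pdgfrb read 8.64 and 1.41 in spleen, against 85.5 and 19.0 in marrow (-3.53). The limma adjusted p-values of the 15 lay between 0.00270 and 0.0382.

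For the 8 of the 19 well above background on both marrow arrays alone, and for Col12a1, the fitted size is no bound. Col23a1, a transmembrane collagen, was the single gene with a tissue effect in the other direction: 11.2 on spleen KO and 28.0 on spleen WT, against 3.10 on marrow KO and 3.94 on marrow WT (2.34, SE 0.547, limma adjusted p = 0.0368). Col14a1 and Col20a1 were also at least 2-fold higher in spleen in both genotypes, by 4.17 and 1.41 in KO and 1.25 and 2.70 in WT, without passing that test. A second Col23a1 probe, well above background on all 4 arrays, read 8.20 on spleen KO and 9.52 on spleen WT. On marrow KO it read 4.65 and on marrow WT 5.33. Its differences of spleen minus marrow were 0.82 in KO and 0.84 in WT, under 2-fold.

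Different probes of a matrix gene could disagree, and 39 of the 60 genes have over 1 probe. In the marrow 19 genes had 2 or more probes measured on both arrays, and in 5 of them (26.3%) the probes lay over 2-fold apart, where 12.6% of all such genes did. The signs were opposite in 6 of the 19, and in 2468 of the 6162 such genes overall. In the spleen all 6 such genes lay over 2-fold apart, where 49.5% of all such genes did. Col2a1, the cartilage collagen, has a pair of probes that share 40 of their 60 bases. The brighter read 77.0 on marrow KO against 93.5 on marrow WT, and the dimmer read 15.9 on marrow KO against 4.75 on marrow WT. For 26 of the 39 genes the brightest probe was the most 3′, and 29 of 55 other probes were well above background on 0 arrays.

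**Figure D4:**
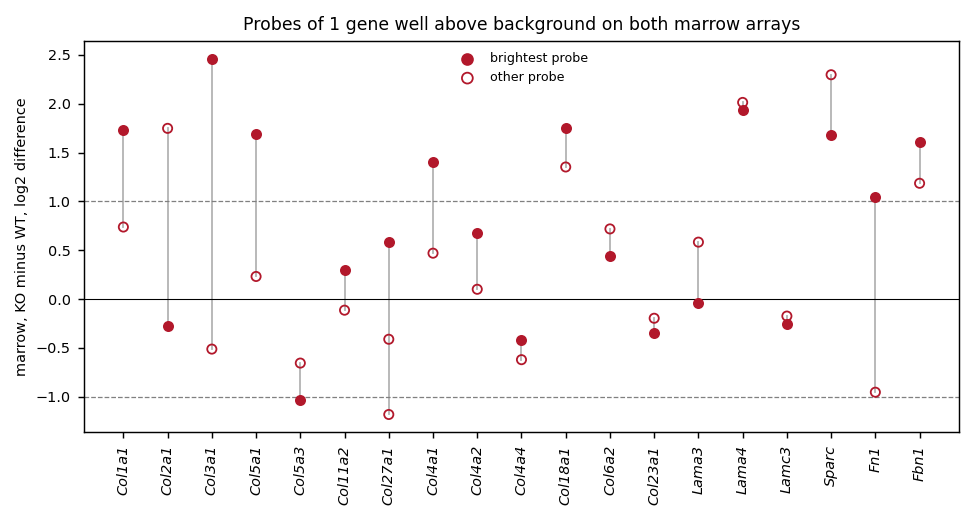
Log2 difference of marrow KO minus marrow WT for each probe of the 19 matrix genes with 2 or more probes well above background on both marrow arrays. Filled points are the brightest probe, used in the counts, and dashed lines mark 2-fold. For Col3a1 the brightest probe is at 2.46 and another at -0.51, and for Fn1 at 1.04 and -0.95.

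Genes that process, break down and bind matrix were set beside the matrix genes. Of all genes measured, 8.59% were at least 2-fold higher on marrow KO and 4.88% lower, and 19.8% and 14.4% on spleen KO. Of 19 collagen processing genes measured, 9 had at least 2-fold higher signal on marrow KO and 0 lower, with a median of 0.44. Pcolce2, an enhancer of procollagen cleavage, read 114 on marrow KO against 3.11 on marrow WT, a difference of 5.20. Lox, which cross-links collagen, read 19.7 on marrow KO against 3.55 on marrow WT, a difference of 2.47. Of 13 measured in the spleen, 5 were higher by that much and 1 was lower. The highest were Serpinh1, the collagen chaperone, at 36.1 on spleen KO against 5.65 on spleen WT (2.67), and Pcolce2 at 233 on spleen KO against 41.6 on spleen WT (2.48).

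Of 16 matrix breakdown genes measured, 9 had at least 2-fold higher signal on marrow KO and 0 lower, where 8.59% and 4.88% of all genes did. Their median was 1.26. Ctsk, the collagen-cutting protease of osteoclasts, read 719 on marrow KO against 15.5 on marrow WT, a difference of 5.54. Mmp8, the neutrophil collagenase, read 5064 on marrow KO against 201 on marrow WT, a difference of 4.65. In the spleen 2 of 12 were higher by that much and 1 lower, where 19.8% and 14.4% of all genes were. The highest were Mmp8 (3.35) and Mmp13 (1.61). Of 22 matrix receptors in the marrow, 6 were higher and 1 lower, with Itga9 (3.13) and Itga11 (2.55), integrin alpha chains, the highest. In the spleen 9 of 21 were higher and 2 lower, with Itga9 (2.47) and Lair1 (2.46), an inhibitory collagen receptor, the highest.

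Markers of other cells differed on the same arrays. In the marrow 8.59% of all genes measured were at least 2-fold higher on marrow KO and 4.88% lower. In the marrow 8 of 9 neutrophil markers were at least 2-fold higher on marrow KO (median 2.70), with a summed relative signal of 148729 against 43604 on marrow WT. Retnlg and Mmp8 were the highest, by 4.95 and 4.65. Platelet markers were at least 2-fold higher in 5 of 9 (median 1.32), with Thbs1 (3.49) and Pf4 (2.17) the highest. Macrophage and erythroid markers were at least 2-fold higher in 0 of 11 and 0 of 6 and lower in 1 each (Cd163, -1.26, and Alas2, -1.12), while Csf1r differed by 0.96 and Hba-a1 by -0.71. B lineage markers were lower in 3 of 10 (Cd22, -2.43, and Cd79a, -1.87, the lowest). Of 9 other stromal genes measured, 4 were higher and 1 was lower, and their median was 0.02. They include Cxcl12, the niche chemokine, at 1634 on marrow KO against 518 on marrow WT (1.66), and Lepr, a marker of marrow reticular cells, at 38.9 on marrow KO against 7.63 on marrow WT (2.35). Pdpn, Ccl21a and Cxcl13 were not well above background on either marrow array. Some genes stand in more than 1 list: Mmp8 and Mmp9, Vwf, Itgb3 and Vcam1. The part of these cells in the matrix result was not tested.

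Of all genes measured in the spleen, 19.8% were at least 2-fold higher on spleen KO and 14.4% lower. Of 9 neutrophil markers, 7 were at least 2-fold higher on spleen KO, with Camp (5.31) and S100a9 (3.88) the highest. The other way went 1, Mmp9, at least 2-fold lower as a bound. Mmp9 read 1.995 on spleen KO, where it was not well above background, against 9.12 on spleen WT. The median was 3.27 over the 8 markers well above background on both arrays, which leaves Mmp9 out. The summed signal of the 9 neutrophil markers was 14483 on spleen KO against 1131 on spleen WT. Macrophage markers were higher in 6 of 11 (Marco, 2.60, and Cd163, 2.45) and lower in 1 (Csf1r, -1.05). Erythroid markers were higher in 5 of 5 (Hbb-b1, 3.03, and Hba-a1, 1.97) and platelet markers in 2 of 8 (Itgb3, 1.34, among them). B lineage markers were higher in 3 of 10 and lower in 5, with Cd79a (-2.47) and Cd22 (-2.25) the lowest. The 3 higher were Blnk (1.58), Ptprc (1.44) and Ms4a1 (1.16). Of 10 other stromal genes, 2 were higher and 1 lower: Kitl, the stem cell factor, differed by 2.43 and Acta2, smooth muscle actin, by -2.86. Ribosomal RNA probes also differed: the brighter Rn18s probe read 379 on spleen KO against 79834 on spleen WT and 3705 on marrow KO against 19952 on marrow WT. Their part in the matrix differences was not tested.

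**Figure D5:**
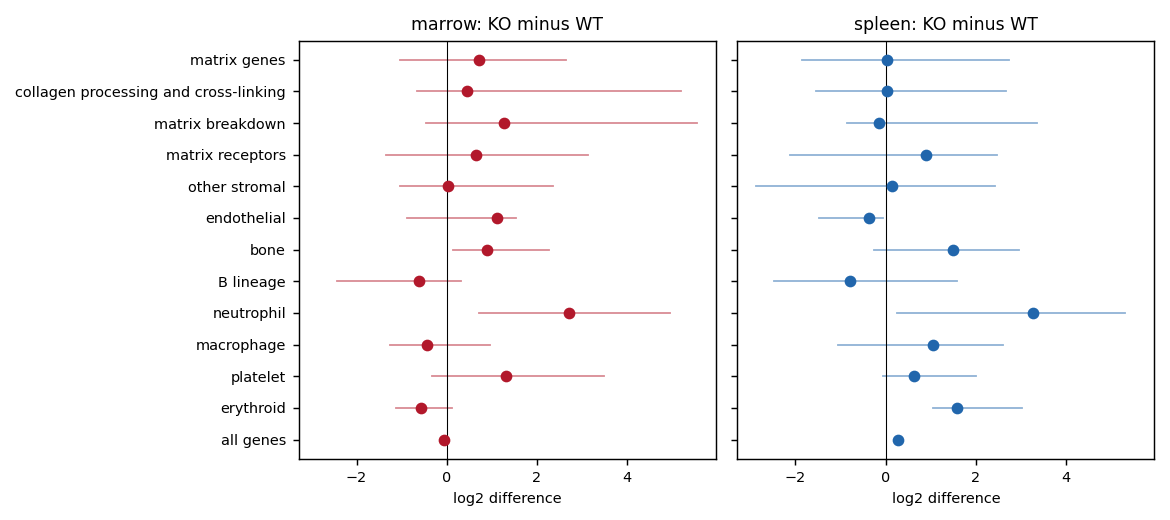
Median (point) and range (line) of the log2 difference of KO minus WT for matrix genes and the other gene lists, over genes well above background on both arrays, in the marrow (left) and the spleen (right). The bottom row gives the median of all genes alone. Matrix genes have a median of 0.71 in the marrow and 0.03 in the spleen, and neutrophil markers have the highest median in both, at 2.70 and 3.27.

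Promoter sequence was available for 41 of the 60 genes, with 45 promoters, from RefSeq on build GRCm38.p6. In the 250 bases before the start, on both strands, CCAAT was found in 13 of the 45 (28.9%) and in 33.8% of all 32851 promoters. TATAAA was found in 5 (11.1%, beside 12.4%) and the GC box GGGCGG in 23 (51.1%, beside 32.7%). The MEF2 consensus, the site of the factor knocked out here, was found in 1 (2.22%, beside 2.92%). A match is a run of letters, not a site shown to be used. The promoters below are those of Col1a2, higher on marrow KO, of Col5a3, lower in KO in both tissues, and of Col13a1, the single gene with a MEF2 match. Capitals mark CCAAT and GGGCGG or its complement in the first pair, and in Col13a1 the MEF2 match, which overlaps TATAAA. They lie at chr6:4505368-4505617 (plus strand), chr9:20815068-20815317 (minus strand) and chr10:61979109-61979358 (minus strand).
Col1a2: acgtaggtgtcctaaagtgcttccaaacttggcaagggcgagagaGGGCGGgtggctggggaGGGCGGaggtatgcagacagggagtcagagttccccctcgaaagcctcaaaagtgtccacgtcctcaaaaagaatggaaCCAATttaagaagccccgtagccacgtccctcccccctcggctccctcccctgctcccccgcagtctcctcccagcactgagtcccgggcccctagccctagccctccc
Col5a3: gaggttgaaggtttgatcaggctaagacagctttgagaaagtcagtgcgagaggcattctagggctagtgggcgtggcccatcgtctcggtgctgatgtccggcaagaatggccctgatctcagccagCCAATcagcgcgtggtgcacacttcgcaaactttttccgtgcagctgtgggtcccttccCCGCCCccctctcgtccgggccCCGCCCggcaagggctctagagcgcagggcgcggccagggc
Col13a1: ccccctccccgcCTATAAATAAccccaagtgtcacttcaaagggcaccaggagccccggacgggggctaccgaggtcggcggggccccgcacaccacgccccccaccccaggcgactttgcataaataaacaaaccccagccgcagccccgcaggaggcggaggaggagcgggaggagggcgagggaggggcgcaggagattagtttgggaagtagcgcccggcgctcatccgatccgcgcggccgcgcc

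Col13a1 itself read 6.44 on marrow KO against 2.87 on marrow WT and was not well above background on either spleen array. Col1a2 and Col5a3, whose marrow differences were opposite, both hold 1 CCAAT and 2 GC boxes in this window.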

How the data were processed

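B220 B cell RNA was measured on 4 Agilent 1-colour arrays, grouped by the labels, with 0 columns outside these samples. The deposited scanner files hold linear processed intensity that the authors obtained with Feature Extraction 10.5.1.1, with probe positions on mm9, per the file headers. The deposited series matrix repeats that intensity: its columns equalled the processed signal at all 45018 spots, with a tolerance of 0 and column medians of 37.9 to 93.0, so it is linear and not centred.

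Control spots were left out, as were 72 to 85 gene spots per array marked as feature outliers. The 75th percentile of gene spots was subtracted on the log2 scale. Spots of a probe were averaged, and a gene, under the name in the file, took its brightest probe by mean signal of 4 arrays. A probe was well above background when more of its spots were marked so by Feature Extraction than not. A bound was taken against the dim value itself or that array's lowest detected value, whichever was higher. Repeated spots of a probe had a median SD of 0.101 to 0.141 (log2) within an array, and precision is limited by having 4 arrays.

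Genes at least 2-fold apart were counted. The test was limma 3.58.1 in R 4.3.3 with tissue and genotype as terms, over the 21724 genes detected on any array. P-values were adjusted by Benjamini-Hochberg, and the threshold was 0.05. Tested on simulated data of those 21724 genes, it recovered 93 of 100 genes changed 8-fold and 3 of 100 changed 2-fold, with 27 false calls. Nothing says whether both tissues came from the same animals.

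The matrix genes and the other lists were chosen with earlier results of these data known. Values of 1 matrix gene and 1 marker of another list are not reported here, and any other matrix gene could be named. Given with their signals on all 4 arrays were those 2-fold apart the same way in both tissues, the 5 highest and 5 lowest of each tissue, the 5 brightest and those passing limma. From each other list the 2 largest differences per tissue among genes well above background on both arrays are named. Also named are Pecam1 in the marrow and Blnk, Ptprc, Ms4a1, Csf1r and Mmp9 in the spleen, which went the other way. Mef2c and Rn18s are checks. Alternatives were median, quantile and cyclic loess scaling, normexp with an offset of 50, the series matrix, the median over probes, the brightest probe by mean log2, no filter, both arrays well above background, 1.5-fold and no tissue term. Choosing the probe without spleen KO was added after seeing the data.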

Additional observations from a re-analysis of the deposited data

Results flagged for a closer look

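For 4 matrix genes the difference between KO and WT was at least 2-fold in opposite directions in the tissues, higher on marrow KO and lower on spleen KO. Each tissue has 1 array per genotype, so the difference between tissues was not tested. Col4a1 differed by 1.41 in the marrow and -1.74 in the spleen. Col8a1 differed by 2.30 in the marrow and -1.01 in the spleen. Sparc differed by 1.68 in the marrow and -1.86 in the spleen. Dcn differed by 2.08 in the marrow and by a bound of -1.83 in the spleen, where it was not well above background on spleen KO. On a second Col4a1 probe the difference was 0.47 in the marrow and -0.13 in the spleen, both under 2-fold. The spleen difference of Sparc was 0.54 on a second probe, and with normexp background correction that of Col8a1 was 0.056.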

How the results depend on the processing

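No paired analysis was possible because each group has 1 array and the labels give no replicate numbers. For the same reason no array could be left out in turn. The 25 matrix genes at least 2-fold higher on marrow KO were all kept under median, quantile and cyclic loess scaling and with the series matrix values. With normexp 19 of them were kept, with the median over probes 17 and with the brightest probe by mean log2 23. Over all alternatives that count was 19 to 30. The count of 2 lower became 1 under cyclic loess, normexp, the median over probes and with both arrays well above background. The marrow median of 0.74, bounds included, was 0.99 under loess and 0.44 under normexp.

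In the spleen the 7 higher became 11 under median scaling and at 1.5-fold, 3 with the median over probes and 4 with both arrays well above background. The 11 lower became 7 under median scaling and with both arrays, 6 under quantile scaling, 2 under normexp and 3 with the median over probes. The spleen median of -0.08 was 0.25 under median scaling, 0.27 under normexp and 0.34 with no filter, and thus had no settled sign.

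For spleen minus marrow in KO, the 30 lower became 19 under normexp and 15 with both arrays. The KO median of -1.19 became -0.96 under median scaling, -0.95 under quantile scaling and with both arrays, -1.43 under loess, -0.40 under normexp and -0.92 with the median over probes. In WT the 26 lower became 9 under normexp and 17 with both arrays, and the median of -1.20 became -0.50 under normexp, -0.79 with the median over probes and -0.86 with both arrays. In limma 0 genotype calls became 5 with median scaling or no filter and 1 with normexp, where all genes shared 1 variance, and 19 tissue calls became 10 under loess and 29 with no filter.

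Single genes changed sign, most often with the median over probes: 7 of 54 in the marrow, 9 of 39 in the spleen, and 3 of 53 in KO and 6 of 48 in WT for spleen minus marrow. Under 2-fold in the marrow these were Col25a1 (-0.28, then 3.28), Col2a1 (-0.28, then 1.75), Col11a1 (0.84, then -0.72), Col27a1 (0.58, then -0.68) and Lama3 (-0.045, then 0.27). Of the genes at least 2-fold apart, with the median over probes, the marrow difference was -0.51 for Col3a1 and -0.21 for Fn1, the spleen difference was -0.089 for Col2a1 and -0.48 for Col27a1, and spleen minus marrow was 0.37 for Col5a1 in WT and 1.01 for Col11a1 in KO. With the brightest probe by mean log2, Fn1 was -0.95 in the marrow. With normexp, the spleen difference of Col8a1 was 0.056 and spleen minus marrow of Col15a1 in KO was 0.066. The causes were not tested, except that requiring both arrays removes bounds. Choosing the probe without spleen KO, added after seeing the data, left the marrow counts at 25 and 2. Of the matrix genes, 28 were not well above background on spleen KO, where small signals limit every spleen difference.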

Other observations

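Endothelial and bone cells also make matrix. Of all genes measured, 8.59% were at least 2-fold higher on marrow KO and 4.88% lower, and 19.8% and 14.4% on spleen KO. Of 8 endothelial genes, 4 had at least 2-fold higher signal on marrow KO and 0 lower, with a median of 1.12. Emcn, a sinusoidal endothelial surface protein, read 202 on marrow KO against 69.6 on marrow WT, a difference of 1.54. Vwf, the clotting protein of endothelium and platelets, read 136 on marrow KO against 49.1 on marrow WT, a difference of 1.47. Pecam1, an endothelial junction protein, went the other way, at 62.1 on marrow KO against 114 on marrow WT, a difference of -0.87. In the spleen 0 of 7 were at least 2-fold higher and 1 was lower. Pecam1 read 72.2 on spleen KO against 200.1 on spleen WT (-1.47), and Kdr, the main VEGF receptor, differed by -0.71.

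Of 5 bone genes, 2 had at least 2-fold higher signal on marrow KO, where 8.59% of all genes did. Spp1, osteopontin, read 761 on marrow KO against 159 on marrow WT, a difference of 2.25. Runx2, the bone transcription factor, read 92.5 on marrow KO against 40.7 on marrow WT, a difference of 1.18. Both were also higher in the spleen: Spp1 read 21.9 on spleen KO against 2.84 on spleen WT (2.95), and Runx2 read 24.5 on spleen KO against 7.14 on spleen WT (1.78). These differences rest on 1 array per group and were not tested apart from the fit over all genes.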
